A study of Saccharomyces cerevisiae with 22 samples.

Results

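The 42 genes described here encode ribosome biogenesis factors of the budding yeast Saccharomyces cerevisiae, the proteins that make and fold ribosomal RNA into subunits without staying in the finished ribosome. They were chosen by systematic name from 3 kinds of factor: proteins of small nucleolar ribonucleoproteins (snoRNPs), proteins of the small-subunit (SSU) processome, and assembly factors of the large subunit. All 42 had an entry among the 7126 of the deposited count table, and all 42 passed the filter on low counts, since the lowest count of any of them in any library was 477. The rule uses gene names and no measured value, but the set was proposed with earlier results of these data known.

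Ribosome assembly starts in the nucleolus, where RNA polymerase I transcribes a long precursor RNA that snoRNPs modify and that the SSU processome and the large-subunit factors fold, cut and package. It is among the most costly activities of a growing yeast cell, and its genes form a regulon that is switched together with nutrients and stress through the TORC1 and PKA kinases. Their promoters are known for a pair of short DNA elements, PAC and RRPE, which are bound by the repressors Dot6 and Tod6 (PAC) and Stb3 (RRPE).

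PolyA RNA was sequenced from 22 libraries of the strain W303 in 4 groups. PSD1 cells (6 libraries) held a multicopy plasmid with PSD1, the gene of mitochondrial phosphatidylserine decarboxylase, driven by the galactose-inducible GAL1-10 promoter. The pdr3Δ PSD1 cells (6 libraries) held the same plasmid and lacked PDR3, which encodes a transcription factor of drug resistance genes. V5-PSD1 cells (5 libraries) expressed PSD1 with a V5 epitope tag from such a plasmid, and empty-vector cells (5 libraries) held the plasmid with no insert. Every group, the empty vector included, grew in 1% yeast extract, 2% peptone and 2% raffinose and then received 2% galactose for 4 h. The series title names mitochondrial import stress as its subject, with PSD1 overexpression as the load on the mitochondria and PDR3 as the factor removed. Whether the replicates came from separate cultures is not stated in the labels, so the spread behind each p-value is that between libraries and may be partly technical.

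The libraries held from 8152941 to 20839061 counts each. Levels are given as CPM, the count of a gene scaled to a common library size. PSD1 mRNA stood at 15253 ± 6041 CPM in PSD1 cells, 18146 ± 4805 CPM in pdr3Δ PSD1 cells and 24680 ± 4199 CPM in V5-PSD1 cells, against 431 ± 143 CPM with the empty vector (SD; n = 6, 6, 5 and 5). PDR3 mRNA was at 0.142 ± 0.0644 CPM in pdr3Δ PSD1 cells and at 187.6 ± 31.6, 81.8 ± 9.49 and 84.9 ± 7.75 CPM in PSD1, V5-PSD1 and empty-vector cells, so both labels matched their genes. A library that stood apart for the genes described here was replicate 2 of pdr3Δ PSD1, in which all 42 factors lay above their group's mean, and another was replicate 3 of that group, in which none did. The main counts are therefore also given without these libraries. The deposited columns of replicates 1 and 2 of that group are both headed as replicate 3, and the library number in the labels decided which sample they belong to.

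Cells with the PSD1 plasmid had lower mRNA of nearly all ribosome biogenesis factors than cells with the empty vector. Of the 42 factors, 39 fell and none rose, where 26.9% of all 6278 tested genes fell and 29.7% rose. The median log2 fold change was −0.65, which is 63.7% of the empty-vector level, with all 42 below 0, from −0.95 to −0.17. The median over all tested genes was 0.02, and 48.4% of them were below 0. In 37 of the 42, every PSD1 library lay below every empty-vector library, a pattern that 15.7% of all genes showed. TIF6, RPF1 and NOP16 did not pass the test. Fold changes here are on the log2 scale with their standard error (SE), and "fell" or "rose" means an adjusted p under 0.05 (quasi-likelihood test of edgeR, Benjamini-Hochberg over the 6278 genes), which is the source of every adjusted p below. These are bulk samples, in which fewer cells with a transcript and less of it per cell cannot be told apart, and each value is a share of the RNA counted, not an amount per cell.

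**Figure D1:**
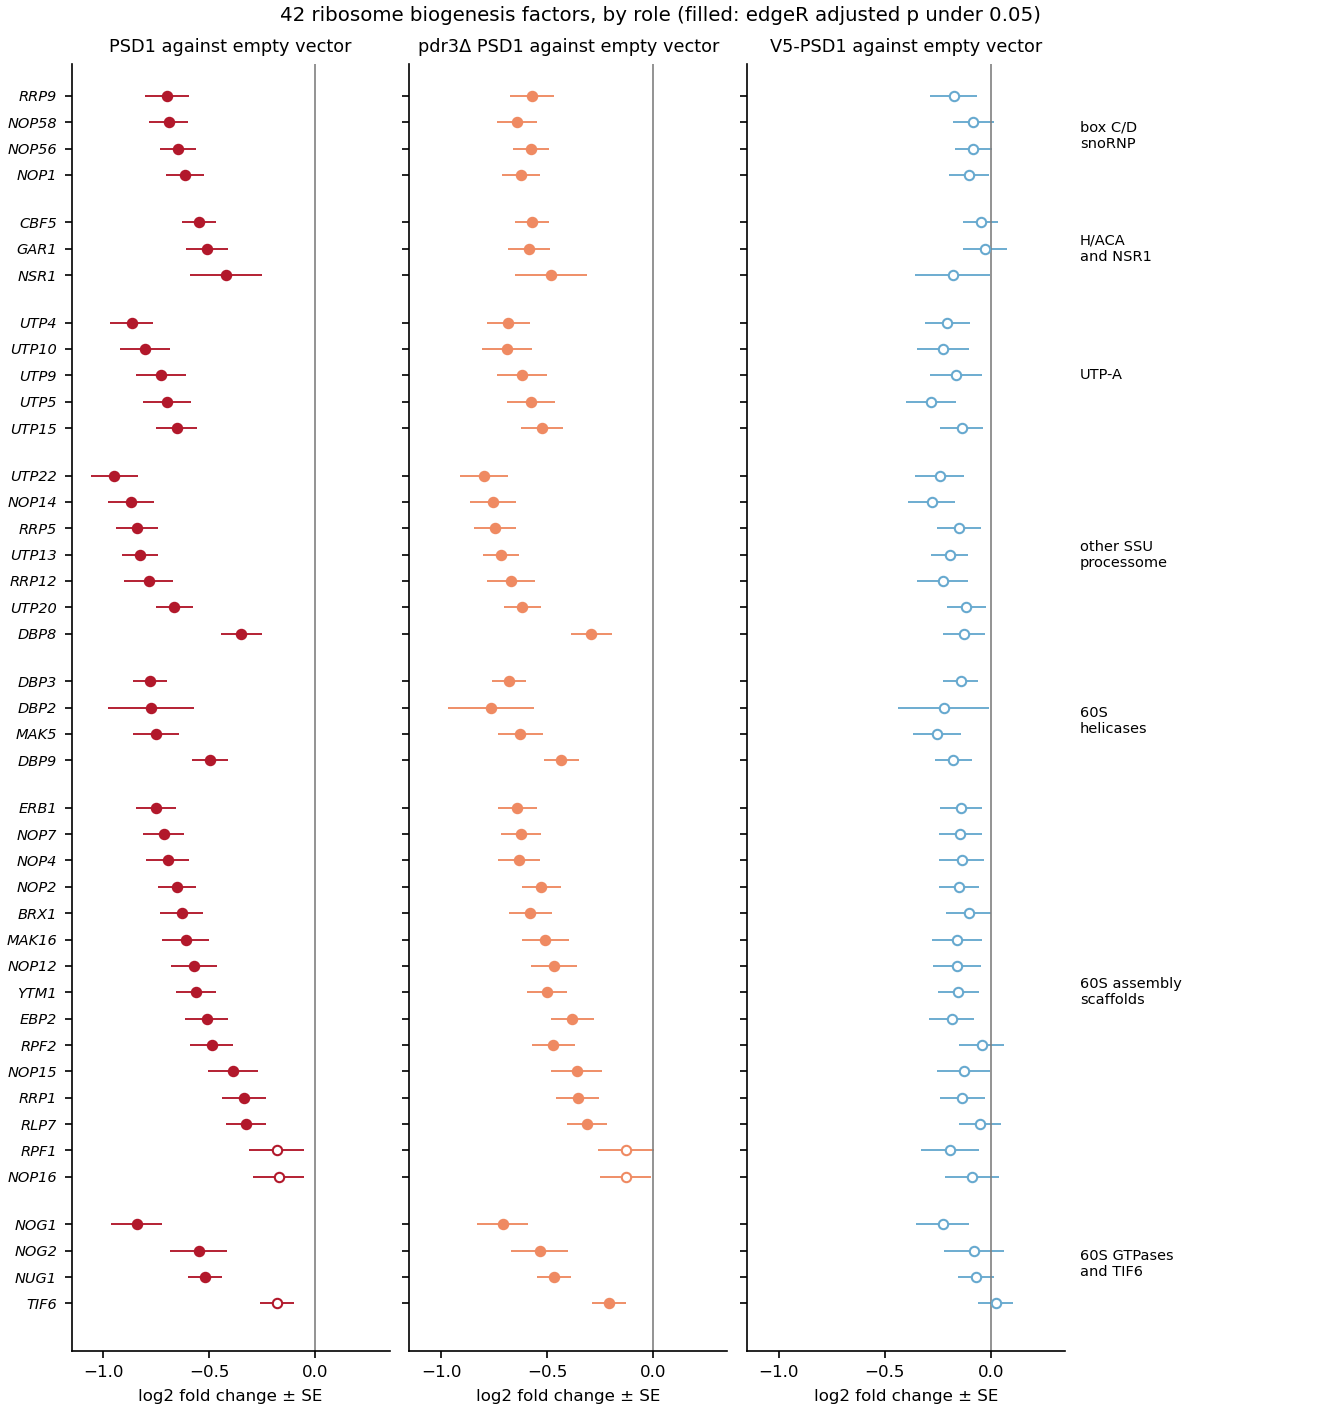
Log2 fold change (horizontal axis, bars ± SE) of each of the 42 factors against the empty vector, with rows grouped by role and 1 panel for each comparison; filled points passed the test. In PSD1 cells 39 points are filled and all 42 lie below 0; in pdr3Δ PSD1 cells 40 are filled; in V5-PSD1 cells none is filled and 41 lie between −0.28 and 0.

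The 4 proteins of box C/D snoRNPs, the particles that guide ribose methylation of ribosomal RNA, all fell in PSD1 cells, by 0.61 to 0.70 on the log2 scale. RRP9 (YPR137W, chromosome XVI, 802359 to 804080, plus strand) encodes a protein specific to the U3 snoRNP and fell most of the 4. RRP9 ran from 87.3 to 104 CPM (median 98.5) in PSD1 cells and from 74.5 to 135 CPM (median 106) in pdr3Δ PSD1 cells. The V5-PSD1 libraries had 126, 137, 159.6, 122 and 149.7 CPM of RRP9, against 143, 145, 158, 164 and 176 CPM in the empty-vector libraries. The PSD1 and empty-vector values did not overlap, and the difference was −0.70 ± 0.11, adjusted p = 1.52e-05. NOP1 (YDL014W, chromosome IV, 427364 to 428347, plus strand) encodes fibrillarin, the methyltransferase of these particles, and was the most abundant of the 42 transcripts per unit length. NOP1 ran from 404 to 566 CPM (median 441) in PSD1 cells and from 363 to 522 CPM (median 452) in pdr3Δ PSD1 cells. NOP1 had 674, 622, 620.3, 633 and 662 CPM in the V5-PSD1 libraries, against 697, 665, 589, 709 and 797 CPM in those of the empty vector. All 6 PSD1 libraries were again below all 5 empty-vector libraries (−0.61 ± 0.09, adjusted p = 1.15e-05), and PSD1 replicate 6, the highest of its group, stood closest to them. NOP56 and NOP58, the paired core proteins that hold the methyltransferase on the guide RNA, fell by 0.65 and 0.69.

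The pseudouridine synthase CBF5 (YLR175W, chromosome XII, 506134 to 507585, plus strand) and its partner GAR1, both of H/ACA snoRNPs, fell by 0.55 and 0.51. CBF5 ran from 383 to 464 CPM (median 404) in PSD1 cells and from 329.7 to 487 CPM (median 402) in pdr3Δ PSD1 cells. CBF5 had 584, 585, 587, 549.9 and 590.0 CPM in the V5-PSD1 libraries, against 587, 558, 562, 619 and 668 CPM in those of the empty vector. Every PSD1 and pdr3Δ PSD1 library lay below every V5-PSD1 and empty-vector library, and the difference of PSD1 cells from the empty vector was −0.55 ± 0.08, adjusted p = 9.98e-06. NSR1 (YGR159C, chromosome VII, 806412 to 807656, minus strand), which encodes a nucleolin-like protein needed for processing of the precursor RNA, was more variable. NSR1 ran from 213 to 403 CPM (median 326) in PSD1 cells and from 239 to 464 CPM (median 277) in pdr3Δ PSD1 cells. NSR1 had 445, 363, 403, 304 and 377 CPM in the V5-PSD1 libraries, against 468, 415, 363, 439 and 449 CPM in those of the empty vector. In PSD1 cells 3 of 6 libraries lay below the lowest empty-vector library and the others among the empty-vector values. NSR1 passed the test (−0.42 ± 0.17, adjusted p = 0.0395), but it did not pass in 7 of 22 fits that each left out 1 library, 4 of the empty vector and 3 of PSD1, with adjusted p from 0.0506 to 0.0940.

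The UTP-A complex, the first part of the SSU processome to bind the precursor RNA, contributed 5 genes, and all 5 fell by 0.65 to 0.87. UTP4 (YDR324C, chromosome IV, 1114433 to 1116763, minus strand) fell most. UTP4 ran from 75.0 to 113 CPM (median 104) in PSD1 cells and from 101 to 139 CPM (median 109) in pdr3Δ PSD1 cells. The V5-PSD1 libraries had 129, 142, 188, 145 and 174 CPM of UTP4, against 178, 170.2, 177, 179.9 and 191 CPM in the empty-vector libraries. The groups were far apart at −0.87 ± 0.10, adjusted p = 9.67e-07. UTP15 (YMR093W, chromosome XIII, 454015 to 455556, plus strand) fell least of the 5. UTP15 ran from 75.2 to 102 CPM (median 87.8) in PSD1 cells and from 74.5 to 122 CPM (median 94.7) in pdr3Δ PSD1 cells. UTP15 had 109, 125, 139, 125 and 125 CPM in the V5-PSD1 libraries, against 127, 130.4, 136, 147 and 146 CPM in those of the empty vector. Its 6 PSD1 values were likewise all below the 5 empty-vector values (−0.65 ± 0.10, adjusted p = 1.49e-05). UTP10, UTP9 and UTP5 lay between the pair, at −0.80 ± 0.12, −0.73 ± 0.12 and −0.70 ± 0.11.

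The other 7 genes of the SSU processome and its precursors included the largest fall of all. UTP22 (YGR090W, chromosome VII, 662358 to 666071, plus strand), a subunit of the UTP-C complex, reached 51.8% of its empty-vector level in PSD1 cells. UTP22 ran from 119 to 158 CPM (median 131) in PSD1 cells and from 116 to 173 CPM (median 151) in pdr3Δ PSD1 cells. The V5-PSD1 libraries had 159, 198, 276, 212 and 241 CPM of UTP22, against 221, 249.7, 280.4, 269 and 263 CPM in the empty-vector libraries. The highest PSD1 library was below the lowest empty-vector library, and the difference was −0.95 ± 0.11, adjusted p = 9.70e-07. NOP14 (−0.87 ± 0.11), RRP5 (−0.84 ± 0.10), UTP13 (−0.83 ± 0.08) and RRP12 (−0.79 ± 0.12) followed. RRP5 is needed for both subunits, UTP13 is a subunit of the UTP-B complex, and RRP12 takes part in export of pre-ribosomal particles. UTP20, the longest gene of the 42, fell by 0.67. DBP8 (YHR169W, chromosome VIII, 442181 to 443476, plus strand), an RNA helicase of small-subunit assembly, fell least of the 7. DBP8 ran from 65.9 to 91.1 CPM (median 79.1) in PSD1 cells and from 59.9 to 98.9 CPM (median 84.1) in pdr3Δ PSD1 cells. DBP8 had 96.3, 90.4, 93.8, 90.2 and 92.6 CPM in the V5-PSD1 libraries, against 95.9, 95.0, 92.5, 113 and 111 CPM in those of the empty vector. Even so, all 6 PSD1 values lay below the 5 empty-vector values (−0.35 ± 0.10, adjusted p = 0.00427).

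**Figure D2:**
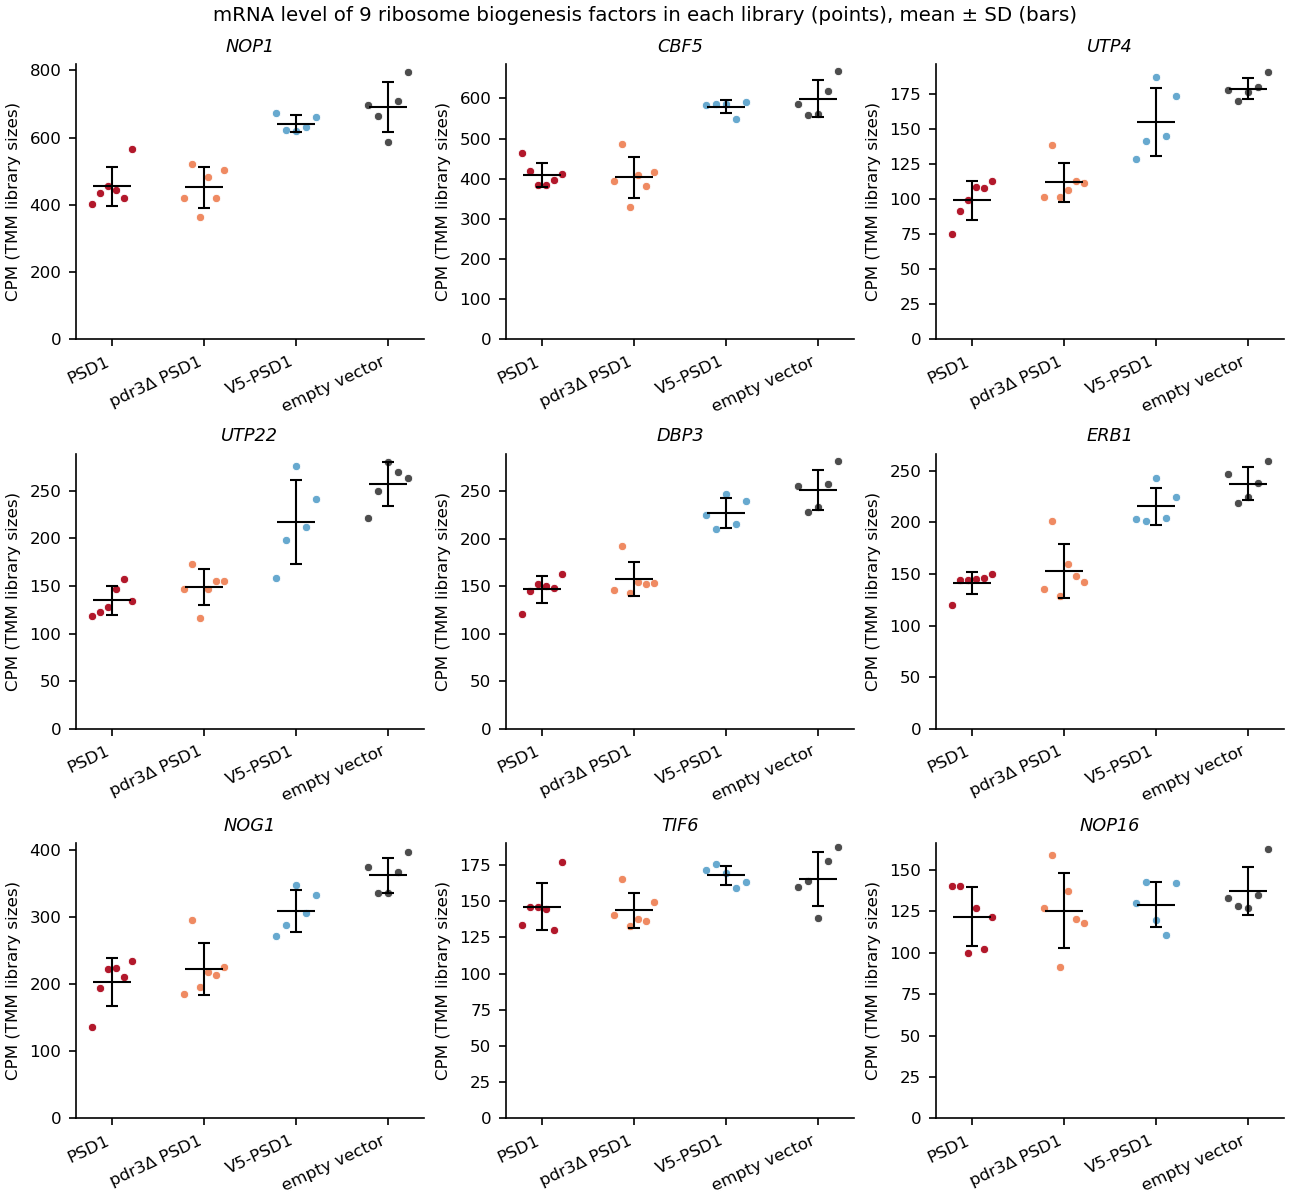
CPM with TMM library sizes (vertical axes, from 0) of 9 factors in each library of the 4 groups; points are libraries and bars the mean ± SD. For the first 7 genes the PSD1 points lie below all empty-vector points, as for UTP22 (highest PSD1 library 158 CPM, lowest empty-vector library 221 CPM), and for TIF6 and NOP16 the groups overlap.

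The set held 4 helicases of large-subunit assembly, and all fell. DBP3 (YGL078C, chromosome VII, 360288 to 361859, minus strand) fell most. DBP3 ran from 121 to 164 CPM (median 149) in PSD1 cells and from 143 to 193 CPM (median 153) in pdr3Δ PSD1 cells. The V5-PSD1 libraries had 225, 210.1, 247, 216 and 240.3 CPM of DBP3, against 256, 229, 234, 258 and 282 CPM in the empty-vector libraries. Neither the PSD1 nor the pdr3Δ PSD1 libraries overlapped the empty vector, and PSD1 cells differed from it by −0.78 ± 0.08, adjusted p = 2.05e-07. DBP2 had a nearly equal change with a larger SE (−0.78 ± 0.20), and MAK5 was at −0.75 ± 0.11. DBP9 (YLR276C, chromosome XII, 695046 to 696830, minus strand) fell least. DBP9 ran from 136 to 164 CPM (median 149.8) in PSD1 cells and from 130.4 to 197 CPM (median 155) in pdr3Δ PSD1 cells. DBP9 had 173, 193, 198, 170.3 and 204 CPM in the V5-PSD1 libraries, against 206, 206, 193, 218 and 238 CPM in those of the empty vector. Its PSD1 and empty-vector values were separate too (−0.50 ± 0.08, adjusted p = 5.20e-05).

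Of 15 scaffold and assembly factors of the large subunit, 13 fell. ERB1 (YMR049C, chromosome XIII, 368094 to 370517, minus strand), NOP7 and YTM1 encode the 3 subunits of 1 complex (PeBoW in mammals) that is needed to process the large-subunit RNA, and they fell by 0.75, 0.72 and 0.56. ERB1 ran from 119.9 to 149.7 CPM (median 145) in PSD1 cells and from 129 to 201 CPM (median 145) in pdr3Δ PSD1 cells. ERB1 had 203, 202, 243, 205 and 225 CPM in the V5-PSD1 libraries, against 246, 219, 225, 238 and 259 CPM in those of the empty vector. ERB1 was separate between PSD1 and empty-vector libraries (−0.75 ± 0.09, adjusted p = 1.71e-06). The RNA methyltransferase gene NOP2 (−0.65 ± 0.09), the RNA-binding factor genes NOP4 (−0.70 ± 0.10) and NOP12 (−0.57 ± 0.11), and BRX1 (−0.63 ± 0.10), MAK16 (−0.61 ± 0.11), EBP2 (−0.51 ± 0.10) and RPF2 (−0.49 ± 0.10) fell as well. RPF2 helps to dock the small ribonucleoprotein particle that carries the smallest ribosomal RNA of the large subunit. NOP15 (−0.39 ± 0.12), RRP1 (−0.34 ± 0.10) and RLP7 (−0.33 ± 0.09) fell least of the 13. NOP16 (YER002W, chromosome V, 156803 to 157498, plus strand) did not pass. NOP16 ran from 100.1 to 140.4 CPM (median 124) in PSD1 cells and from 91.5 to 159 CPM (median 124) in pdr3Δ PSD1 cells. NOP16 had 130.1, 143, 119.9, 111 and 142 CPM in the V5-PSD1 libraries, against 133, 128, 127, 135 and 163 CPM in those of the empty vector. All 4 groups overlapped (−0.17 ± 0.12, adjusted p = 0.233). RPF1 (YHR088W, chromosome VIII, 281495 to 282382, plus strand), which carries the Brix domain found in several of these factors, did not pass either. RPF1 ran from 58.8 to 88.1 CPM (median 74.5) in PSD1 cells and from 55.5 to 106 CPM (median 70.9) in pdr3Δ PSD1 cells. RPF1 had 77.7, 73.3, 69.8, 64.1 and 78.1 CPM in the V5-PSD1 libraries, against 82.4, 75.0, 75.1, 89.3 and 92.5 CPM in those of the empty vector. The lowest PSD1 libraries were below all empty-vector libraries and the highest were among them (−0.18 ± 0.13, adjusted p = 0.245).

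The last role group holds 3 GTPases that act as checkpoints on the large-subunit precursor, and TIF6, the homolog of the mammalian factor that keeps the subunits from joining too early. NOG1 (YPL093W, chromosome XVI, 370978 to 372921, plus strand) fell by 0.84, NOG2 by 0.55 and NUG1 by 0.52. NOG1 ran from 136 to 235 CPM (median 217) in PSD1 cells and from 186 to 297 CPM (median 216) in pdr3Δ PSD1 cells. The V5-PSD1 libraries had 272, 288, 349, 306 and 333 CPM of NOG1, against 375, 336, 336, 368 and 397 CPM in the empty-vector libraries. The highest PSD1 value of NOG1 was far below the lowest empty-vector value (−0.84 ± 0.12, adjusted p = 8.49e-06). NOG2 has an intron that contains the snoRNA gene SNR191, so its value is less certain where reads of the pair overlap. TIF6 (YPR016C, chromosome XVI, 592332 to 593069, minus strand) was the least changed of the 4. TIF6 ran from 130.3 to 177 CPM (median 145) in PSD1 cells and from 133 to 165 CPM (median 139) in pdr3Δ PSD1 cells. TIF6 had 172, 176, 169, 159 and 163 CPM in the V5-PSD1 libraries, against 160.0, 164, 138, 178 and 187 CPM in those of the empty vector. Empty-vector replicate 3 was as low as the PSD1 libraries and PSD1 replicate 6 as high as the empty-vector ones. TIF6 missed the threshold at −0.18 ± 0.08, adjusted p = 0.0599. It passed in 4 of 22 fits without 1 library (replicate 6 of PSD1, replicates 2 and 4 of pdr3Δ PSD1 and replicate 3 of the empty vector). Of the 13 other alternative fits it passed in 8, DESeq2 and limma among them.

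Most factors lay below the empty vector in the pdr3Δ PSD1 cells. The series holds no pdr3Δ cells with the empty vector, so this comparison changes genotype and plasmid at once. Of the 42, 40 fell and none rose against the empty vector, where 21.4% of all tested genes fell and 26.1% rose. The median was −0.58, or 67.1% of the empty-vector level, against 0.02 for all genes, and all 42 values were below 0, against 47.6% of all genes. By role the medians ran from −0.72 for the 7 other SSU processome genes to −0.47 for the 15 large-subunit scaffold genes. The roles also differ in gene length, and these medians were not adjusted for it. UTP22 (−0.80 ± 0.11), DBP2 (−0.77 ± 0.20), NOP14 (−0.75 ± 0.11) and RRP5 (−0.75 ± 0.10) fell most, and RPF1 (−0.13 ± 0.13, adjusted p = 0.443) and NOP16 (−0.13 ± 0.12, adjusted p = 0.402) did not pass. TIF6 passed narrowly (−0.21 ± 0.08, adjusted p = 0.0398) and did not in 8 of 22 fits without 1 library (replicates 1, 3, 5 and 6 of pdr3Δ PSD1 and 1, 2, 4 and 5 of the empty vector), with adjusted p from 0.0504 to 0.133. NSR1 (−0.48 ± 0.17, adjusted p = 0.0238) did not pass in 5 such fits (replicates 1, 3 and 5 of pdr3Δ PSD1 and 4 and 5 of the empty vector; adjusted p from 0.0515 to 0.0575), and NOP15 (−0.36 ± 0.12, adjusted p = 0.0173) in 1 (replicate 5 of the empty vector, 0.0664). In 25 of the 42 every pdr3Δ PSD1 library lay below every empty-vector library, against 13.1% of all genes. Without replicates 2 and 3 of this group, 40 factors fell again, and the share of all genes that fell in that fit is not given here.

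Set against PSD1 cells directly, no factor passed in pdr3Δ PSD1 cells in edgeR, in DESeq2 or in limma on log2 FPKM, and none had an unadjusted p under 0.05 in any of the 3. In edgeR 331 of all 6278 tested genes had such an unadjusted p. Of all tested genes, 0.398% fell and 0.0159% rose in that comparison. The median difference was 0.07, and the values ran from −0.07 for GAR1 to 0.18 for UTP4. Of the 42, 6 were below 0, against 49.5% of all genes, and none had every pdr3Δ PSD1 library below every PSD1 library, against 0.366% of all genes. The count below 0 depended on single libraries. Without replicate 2 of pdr3Δ PSD1 it was 25, with a median of −0.01, and without replicate 3 it was 2, with a median of 0.12. For UTP22 the difference was 0.15 with an approximate 95% interval from −0.06 to 0.36, and for NOP1 it was −0.01 with an interval from −0.18 to 0.16. These intervals take the SE as exact (normal approximation), so they are somewhat narrower than the edgeR test would give. Over the 42 factors the lowest bound of an interval was −0.38 and the highest 0.39.

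V5-PSD1 cells held more PSD1 mRNA than PSD1 cells and showed a much smaller difference in the factors. None of the 42 passed against the empty vector, where 0.494% of all tested genes fell and 2.53% rose. The median was −0.15, or 90.3% of the empty-vector level, and 41 of the 42 had a value below 0, against 45.8% of all genes, for which the median was 0.02. NOP14, UTP5, MAK5 and UTP13 had an unadjusted p under 0.05, and their values were −0.28 ± 0.11, −0.28 ± 0.12, −0.25 ± 0.11 and −0.19 ± 0.09; over all tested genes the share at that p was 17.3%. DESeq2 and limma made no call either, with 6 and 14 of the 42 at an unadjusted p under 0.05, against 17.3% and 18.6% of all genes. With the library set, a run of neighbouring library numbers, as a block, UTP5 passed (−0.26, adjusted p = 0.0442). By role the medians ran from −0.20 for UTP-A to −0.05 for the H/ACA proteins with NSR1, again with no adjustment for gene length. TIF6 was the only factor whose value lay above 0 (0.02 ± 0.08, adjusted p = 0.911). No factor had all V5-PSD1 libraries below all empty-vector libraries, which 1.23% of all genes did.

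The direct comparison tests the difference between the plasmids. Against V5-PSD1 cells, 36 of the 42 factors fell in PSD1 cells and none rose, where 20.1% of all tested genes fell and 20.3% rose. Over all 42 the median was −0.51, against 0.01 for all genes, and 41 were below 0, against 48.6% of all genes. In 33 factors the libraries of the groups did not overlap, against 10.1% of all genes. UTP22 (−0.71 ± 0.11), RRP5 (−0.69 ± 0.10), UTP4 (−0.66 ± 0.10) and DBP3 (−0.64 ± 0.08) differed most. TIF6 (−0.20 ± 0.08, adjusted p = 0.0483) and DBP2 (−0.55 ± 0.20, adjusted p = 0.0364) passed narrowly and did not in 16 and 6 of 22 fits without 1 library, with adjusted p up to 0.106 and 0.0967. NSR1, NOP15, DBP8, RRP1 and NOP16 were at −0.24 ± 0.17, −0.26 ± 0.12, −0.22 ± 0.10, −0.20 ± 0.10 and −0.08 ± 0.12 and did not pass. RPF1 was level between the groups at 0.01 ± 0.13, a value whose sign changed with the processing. PSD1 mRNA itself was lower in PSD1 cells than in V5-PSD1 cells (−0.69 ± 0.26, adjusted p = 0.0383), and its part in these differences was not tested.

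In pdr3Δ PSD1 cells 34 of the 42 fell against V5-PSD1 cells and none rose, where 14.2% of all tested genes fell and 15.5% rose. The median was −0.45 and that of all genes 0.01, and 41 of the 42 were below 0, against 48.1% of all genes. RRP5 (−0.59 ± 0.10), NOP58 (−0.56 ± 0.09), UTP22 (−0.56 ± 0.11) and GAR1 (−0.56 ± 0.10) differed most. UTP5, EBP2, NOP15, NSR1, DBP8, RRP1, NOP16 and RPF1 did not pass, with values from −0.30 for NSR1 to 0.06 for RPF1. Only 12 factors had separate libraries, against 7.2% of all genes. Without replicates 2 and 3 of pdr3Δ PSD1 37 factors fell. The share of all genes that fell in that fit is not given here, so 34 and 37 are not compared.

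The labels give each library a number that begins with 5 (12 libraries) or with 6 (10 libraries), and each group holds libraries of both series. Against the empty vector 29 factors fell in PSD1 cells within series 5 alone (median −0.67), where 15.9% of all genes fell, and 39 within series 6 alone (median −0.69), where 22.3% did. In pdr3Δ PSD1 cells 14 and 40 fell (medians −0.54 and −0.68), where 281 of 6292 and 1261 of 6294 genes fell. In V5-PSD1 cells none fell in either series (medians −0.10 and −0.24), where 0.0159% and 0.397% of all genes fell; 0 and 24 factors had an unadjusted p under 0.05, against 5.96% and 16.2% of all genes. Against V5-PSD1 cells, 12 and 33 factors fell in PSD1 cells, where 4.56% and 15.4% of all genes fell. In the same comparison of pdr3Δ PSD1 cells 0 and 30 fell, where 1.41% and 13.5% of all genes fell, with 24 and 35 factors at an unadjusted p under 0.05, against 18.6% and 39.1% of all genes. A test of whether the change against the empty vector differed between the series called none of the 42 in any of the 3 groups, and none had an unadjusted p under 0.05. Of all 6278 genes the same test called 3, 1 and 0 in PSD1, pdr3Δ PSD1 and V5-PSD1 cells. The median difference of the factors, series 6 minus series 5, was −0.07, −0.19 and −0.20 in that order. With 2 or 3 libraries per group in a series, the test cannot show that the series agree.

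In some libraries nearly all of the 42 factors lay on the same side of their group's mean, and in others they were split. Their share of all counts averaged 0.664 ± 0.0493% in PSD1 cells, 0.699 ± 0.121% in pdr3Δ PSD1 cells, 0.901 ± 0.0647% in V5-PSD1 cells and 1.04 ± 0.0764% with the empty vector. Replicate 2 of pdr3Δ PSD1 had all 42 above their group's mean, by a median of 0.36 on the log2 scale, and replicate 3 had all 42 below it, by a median of −0.29. With the empty vector, replicate 5 had all 42 above (median 0.17) and replicate 2 had 1 above (median −0.09), while in V5-PSD1 cells replicate 4 had 3 above. The PSD1 libraries had from 11 to 35 of the 42 above. Replicate 6 of pdr3Δ PSD1 had 20 above and replicate 1 of the empty vector had 19. Across all tested genes the share above the group's mean stayed between 45.2% and 53.9% in every library. The scaling of library sizes holds that share near the middle, so it does not show how other gene lists deviated. Without replicates 2 and 3 of pdr3Δ PSD1, a choice made after seeing the data, 40 factors fell in PSD1 cells and 40 in pdr3Δ PSD1 cells against the empty vector, and 0 in V5-PSD1 cells. In the main fit of all libraries the shares of all tested genes that fell were 26.9%, 21.4% and 0.494% in that order. The median factor of replicate 2 of pdr3Δ PSD1, at −0.19 against the empty-vector mean, lay among the V5-PSD1 libraries (−0.25 to −0.02), and the other pdr3Δ PSD1 libraries lay between −0.81 and −0.51. PSD1 mRNA in that library was 15207 CPM, inside the range of its group.

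**Figure D3:**
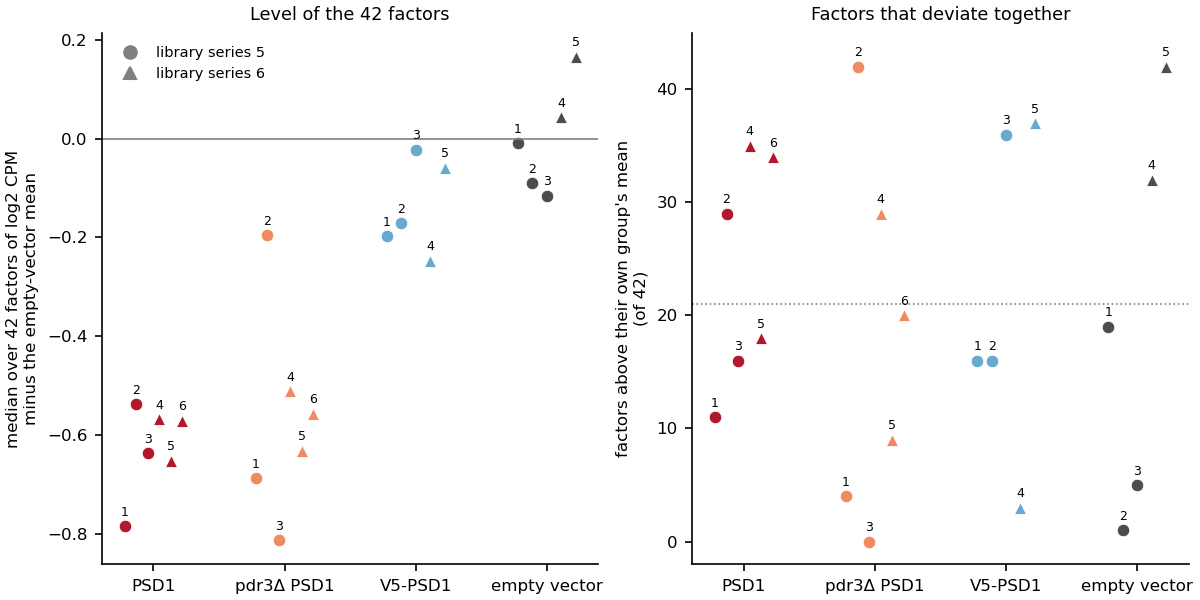
Left, the median over the 42 factors of log2 CPM minus the mean of the empty-vector libraries, for each library; right, how many of the 42 lie above the mean of the library's own group (dotted line at 21). Numbers are replicates and shapes the library series; PSD1 libraries lie from −0.78 to −0.54, and replicate 2 of pdr3Δ PSD1 lies at −0.19 with 42 of 42 above its group.

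The promoters of the 42 genes were searched for the PAC and RRPE elements. Each window covers 250 bases before to 50 bases after the annotated start codon in the reference genome sequence of RefSeq (build R64, strain S288C, the sequence of sacCer3), so W303 may differ in single bases. The 5 windows below were taken as the plainest cases: UTP13 and NOP58, which fell strongly and hold both elements, NOP7 with repeated PAC cores, RPF1, which holds both and did not pass, and UTP22, which holds neither. Capitals mark the PAC core (GATGAG, or CTCATC on the other strand) and the RRPE core (AAAATTTT, which reads the same on both strands). UTP13 lies at chrXII:581722-582021, minus strand, NOP58 at chrXV:898311-898610, minus strand, NOP7 at chrVII:695167-695466, plus strand, RPF1 at chrVIII:281245-281544, plus strand and UTP22 at chrVII:662108-662407, plus strand. All are written from 5′ to 3′ in the direction of the gene.
UTP13: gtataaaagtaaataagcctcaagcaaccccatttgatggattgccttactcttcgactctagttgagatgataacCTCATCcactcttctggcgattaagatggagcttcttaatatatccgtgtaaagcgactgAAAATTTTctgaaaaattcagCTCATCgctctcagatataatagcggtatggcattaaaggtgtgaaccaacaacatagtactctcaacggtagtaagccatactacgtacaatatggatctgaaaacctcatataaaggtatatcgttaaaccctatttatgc
NOP58: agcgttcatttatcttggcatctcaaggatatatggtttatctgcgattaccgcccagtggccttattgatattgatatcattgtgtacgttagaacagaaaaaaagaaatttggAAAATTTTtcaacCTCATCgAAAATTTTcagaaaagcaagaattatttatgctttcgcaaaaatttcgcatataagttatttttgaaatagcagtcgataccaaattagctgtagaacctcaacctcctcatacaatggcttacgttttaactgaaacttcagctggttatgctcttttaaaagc
NOP7: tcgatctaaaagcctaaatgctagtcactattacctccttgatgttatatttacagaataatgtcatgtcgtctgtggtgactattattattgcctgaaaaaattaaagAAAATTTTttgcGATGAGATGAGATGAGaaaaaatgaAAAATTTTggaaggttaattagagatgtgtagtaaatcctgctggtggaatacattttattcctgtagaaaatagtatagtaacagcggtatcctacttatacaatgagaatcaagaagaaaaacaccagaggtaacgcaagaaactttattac
RPF1: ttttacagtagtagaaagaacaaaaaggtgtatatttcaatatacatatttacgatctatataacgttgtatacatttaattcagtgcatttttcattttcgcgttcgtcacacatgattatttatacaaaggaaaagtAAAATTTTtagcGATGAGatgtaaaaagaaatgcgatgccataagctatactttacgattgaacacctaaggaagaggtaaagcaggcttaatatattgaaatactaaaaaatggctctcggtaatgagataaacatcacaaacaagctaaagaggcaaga
UTP22: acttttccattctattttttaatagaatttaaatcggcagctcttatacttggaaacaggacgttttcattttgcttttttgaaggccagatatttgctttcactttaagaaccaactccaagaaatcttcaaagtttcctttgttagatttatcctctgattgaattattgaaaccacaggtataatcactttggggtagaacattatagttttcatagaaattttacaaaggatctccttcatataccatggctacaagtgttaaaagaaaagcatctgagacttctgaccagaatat

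The PAC core was present in 40 of the 42 windows (95.2%), against 1222 of 6001 windows of all genes with a start codon (20.4%). The RRPE core was present in 35 (83.3%), against 9.03% of all windows, and both were in 34 (81.0%), against 4.38%. The longer forms GCGATGAG and GAAAATTTT were in 25 and 24 of the 42, against 3.93% and 4.67% of all windows, searched on both strands. In UTP4 the PAC core lay only after the start codon. The nearest PAC match before the start codon began 57 to 204 bases from it (median 119, 39 genes) and the nearest RRPE match 33 to 225 bases (median 140, 35 genes). Of 33 genes with both before the start codon, the closest pair had the RRPE farther out in 23, with a median of 16 bases between first bases (10 to 44), and no PAC match shared bases with an RRPE match. The 34 genes with both cores had a median log2 fold change of −0.64 in PSD1 cells (−0.87 to −0.18), and the 6 with PAC alone (MAK5, NOP12, NOP16, NOP4, RRP1 and RRP9) had −0.63 (−0.75 to −0.17). UTP15 held RRPE alone (−0.65). RPF1 and TIF6, which did not pass in PSD1 cells, held both cores, and UTP22, which fell most, held neither. A match describes letters in the window and says nothing of binding.

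**Figure D4:**
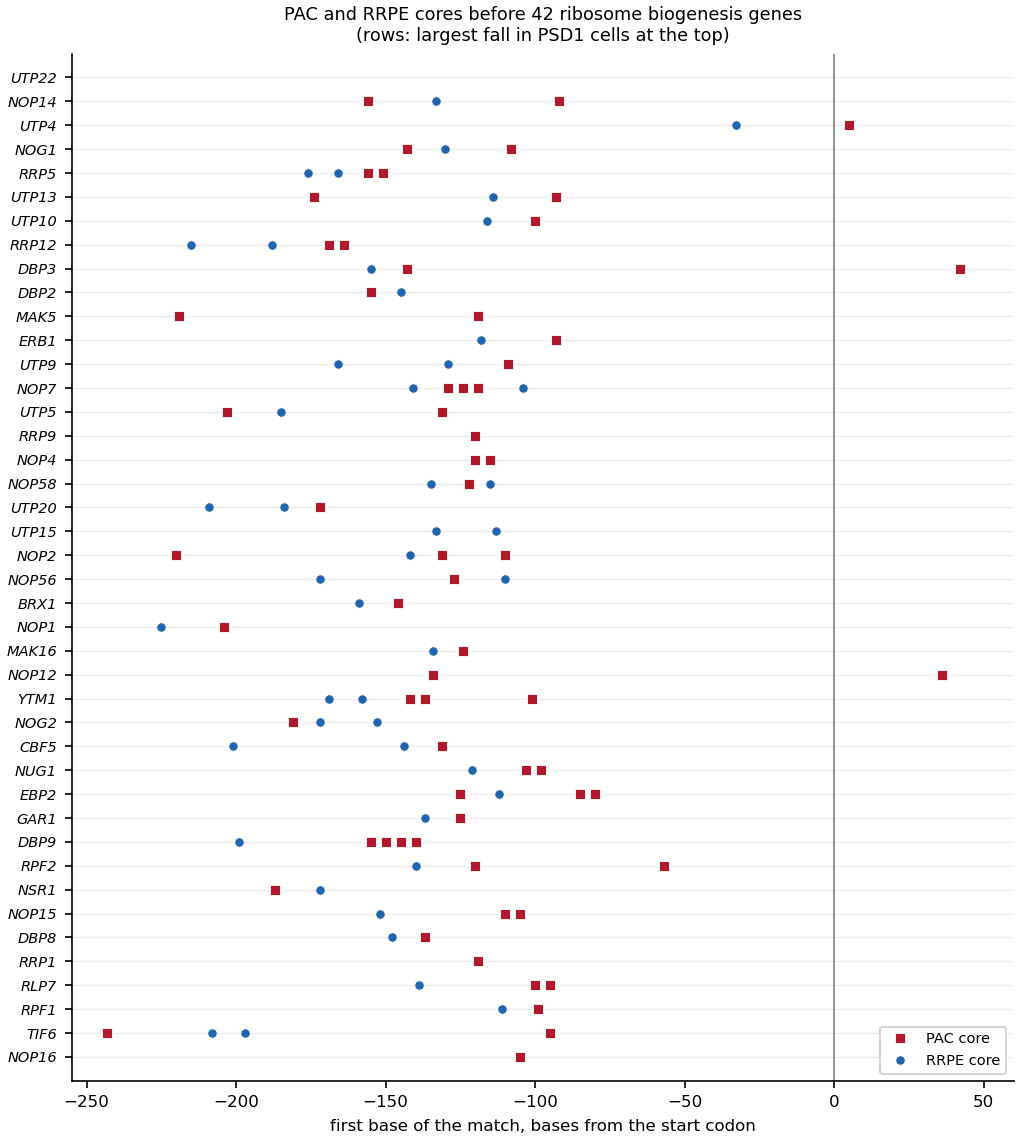
First base of each PAC core (squares) and RRPE core (circles) relative to the start codon (0), for the 42 genes ordered by their log2 fold change in PSD1 cells with the largest fall at the top. The medians of the nearest matches lie 119 bases (PAC) and 140 bases (RRPE) before the start codon, and the row of UTP22 is empty.

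The change went with gene length. Across the 42 factors Pearson's r between the log2 fold change in PSD1 cells and log2 gene length was −0.73, as a description over genes that share libraries, and across all 5795 genes with an annotated length it was −0.29. The median fold change was −0.36 for the 10 factors under 1000 bases, −0.61 for the 20 from 1000 to 2000 bases and −0.79 for the 12 over 2000 bases. All genes of these lengths had medians of 0.20, 0.00 and −0.23, above those of the factors at each length. NOP16, TIF6 and RPF1, the 3 that did not pass, are 696, 738 and 888 bases long in their coding sequence. With the length trend of all genes removed from each library, an alternative chosen after seeing the data, all 42 fell in PSD1 cells with a median of −0.58, where 28.4% of the 5795 genes fell. NOP16 then stood at −0.35, adjusted p = 0.00394, TIF6 at −0.33, adjusted p = 0.00113 and RPF1 at −0.30, adjusted p = 0.0292. UTP22 was at −0.66 and UTP20 at −0.26, while 41 factors fell in pdr3Δ PSD1 cells and none in V5-PSD1 cells, where 24.7% and 0.69% of the 5795 genes fell.

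**Figure D5:**
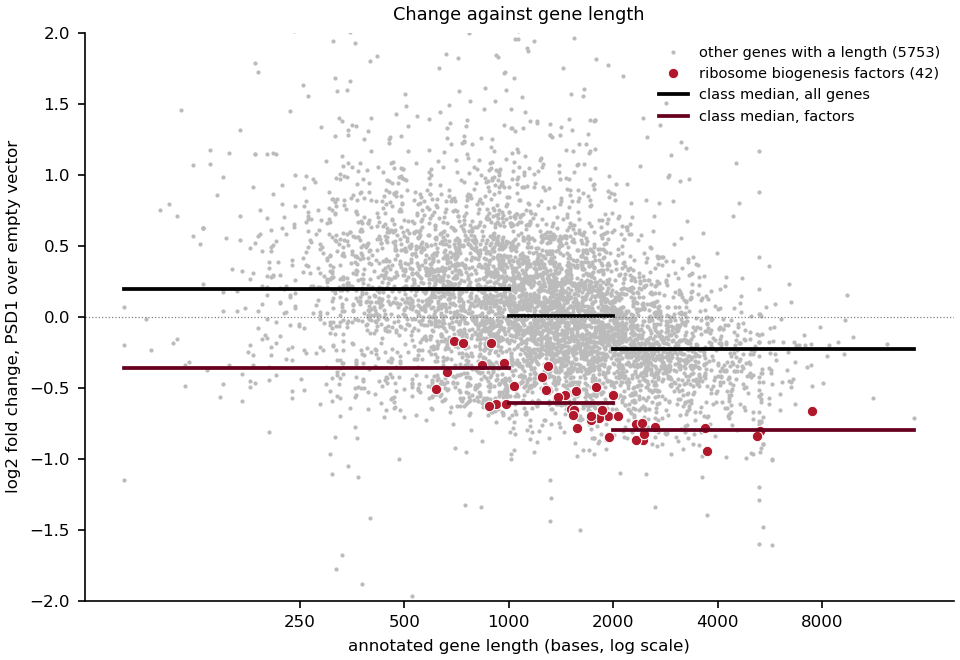
Log2 fold change of PSD1 over empty-vector cells (vertical axis; 58 genes lie beyond its ends) against annotated gene length on a log axis, for 5753 other genes (grey) and the 42 factors (red). Horizontal lines are medians within 3 length classes: those of the factors (−0.36, −0.61 and −0.79) lie below those of all genes (0.20, 0.00 and −0.23).

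Levels per unit length were compared in the empty-vector cells as FPKM. NOP1 was highest at 754 ± 76.8 FPKM, followed by CBF5 (435 ± 32.4), GAR1 (388 ± 53.7), NOP58 (375 ± 36.5), NSR1 (364 ± 29.5) and NOP56 (309.9 ± 18.6). The 6 most abundant transcripts are thus those of the snoRNP core proteins and the nucleolin-like NSR1. UTP20 was lowest at 25.2 ± 2.05 FPKM, with UTP10 (53.2 ± 3.84) and UTP13 (59.2 ± 3.70) next. In this order 38 of 41 neighbouring pairs overlapped between libraries, and NOP1 and UTP20 stood clear of their neighbours. In PSD1 cells NOP1 had 486 ± 55.0 FPKM and UTP20 15.6 ± 1.85 FPKM.

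A further 92 ribosome biogenesis genes outside the set were counted for context. In PSD1 cells 86 of them fell and none rose against the empty vector, with a median of −0.54; URB1 (−0.95 ± 0.13), URB2 (−0.90 ± 0.13) and PWP2 (−0.90 ± 0.12), factors of the large and small subunit, fell most. UTP11, BUD21, NOP10, NOP6, RRP15 and RRS1 did not pass. In pdr3Δ PSD1 cells 85 fell, and in V5-PSD1 cells 1 did (RIO1, −0.37 ± 0.10, adjusted p = 0.0493). Of all tested genes 26.9% fell and 29.7% rose in PSD1 cells, and 21.4% and 0.494% fell in pdr3Δ PSD1 and V5-PSD1 cells. The windows of the 92 genes held PAC in 89.1%, RRPE in 77.2% and both in 69.6%. Of 132 cytosolic ribosomal protein genes 121 fell and 1 rose in PSD1 cells with a median of −0.55, but both cores occurred in 1 of their windows (0.758%). In V5-PSD1 cells the ribosomal protein genes had a median of 0.08, where the 42 factors had −0.15 and the other 92 had −0.14. All genes under 1000 bases had a median of 0.09 in that comparison, and those over 2000 bases −0.09. The lists were not matched for gene length. Near-identical ribosomal protein copies share reads, and the difference between the lists was not tested. Of 7 RNA polymerase I genes 5 fell in PSD1 cells (median −0.52).

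Genes of the regulators were checked as well. Of the activators, SFP1 (−0.30 ± 0.10), SCH9 (−0.27 ± 0.06), FHL1 (−0.36 ± 0.07) and IFH1 (−0.54 ± 0.14) fell in PSD1 cells; the last 2 act mainly at ribosomal protein genes. With the length trend removed SFP1 was at −0.19 (adjusted p = 0.0300) and FHL1 at −0.15 (adjusted p = 0.00227), and SCH9 at −0.10 (adjusted p = 0.173) and IFH1 at −0.29 (adjusted p = 0.0501) did not pass. Of the repressors, TOD6 fell to 62.9 ± 9.71 CPM in PSD1 cells, against 109 ± 9.35 CPM with the empty vector (−0.79 ± 0.12, adjusted p = 2.50e-05). DOT6 was at −0.16 ± 0.08, adjusted p = 0.0876; it passed in DESeq2 and limma and was at −0.05 (adjusted p = 0.600) with the length trend removed. TOD6 was then at −0.76 (adjusted p = 2.39e-05). STB3 was at −0.03 ± 0.08, adjusted p = 0.778. In pdr3Δ PSD1 cells TOD6 (−0.68 ± 0.12), IFH1, SCH9 and FHL1 fell, and no regulator passed in V5-PSD1 cells. These are mRNA levels only; the activity of the regulators was not measured.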

How the data were processed

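The authors deposited expected counts per gene for 22 libraries, as whole numbers, and a table of log2(FPKM + 1) values. Per the submitters' processing notes, STAR 2.5.3a, RSEM 1.3.0, SAMtools 1.3 and build sacCer3 were used; the sources used here give no annotation or strand setting and no order of these tools. Gene names came from RefSeq (R64), which matched 6048 of 7126 entries; the other 1078 held 1.68 to 3.05% of counts. Counts were fitted with edgeR 4.0.16 (R 4.3.3) in 1 quasi-likelihood model of all 22 libraries with group and library series, TMM library sizes and edgeR's filter on low counts, which left 6278 genes; p-values were adjusted by Benjamini-Hochberg over all of them with a threshold of 0.05. CPM use TMM library sizes. Alternatives were DESeq2 1.42.0, limma 3.58.1 on the deposited log2 values, other scalings, designs and subsets, and each library left out. The 42 factors and the other gene lists were chosen with earlier results of these data known. Genes with per-library values are those with the largest and the smallest change of each role and those that did not pass. Promoter windows were cut from the RefSeq genome sequence, since no promoter table was used here.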

Additional observations from a re-analysis of the deposited data

Results flagged for a closer look

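In 168 tests, 1 for each factor and group, the highest or lowest library lay far from the rest of its group by Dixon's test at 95% in 20, where chance gives about 1 in 20 tests. Of these 20, 9 were replicate 2 of pdr3Δ PSD1, always as the highest library: NOP56 with 381.1 CPM, NOP7 with 274.7 CPM, NSR1 with 463.9 CPM, DBP3 with 192.6 CPM, MAK5 with 124.8 CPM, UTP4 with 138.6 CPM, UTP5 with 195.4 CPM, NUG1 with 187.9 CPM and NOG1 with 296.6 CPM. Another 4 were replicate 1 of PSD1, as the lowest library: NOP2 with 176.7 CPM, MAK5 with 66.53 CPM, UTP13 with 65.82 CPM and ERB1 with 119.9 CPM. Replicate 6 of PSD1 was high for NOP1 (565.7 CPM) and TIF6 (177.0 CPM). Replicate 4 of V5-PSD1 was low for CBF5 (549.9 CPM) and RPF2 (113.9 CPM). Replicate 5 of the empty vector was high for NOP14 (187.3 CPM), NOP16 (162.7 CPM) and MAK5 (161.7 CPM). The factors of a library can deviate together, so these values are not independent of each other.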

How the results depend on the processing

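Without 1 library at a time, 38 to 40 of the 42 factors fell in PSD1 cells and 37 to 40 in pdr3Δ PSD1 cells against the empty vector, 0 to 2 in V5-PSD1 cells, 0 in pdr3Δ PSD1 against PSD1 cells, and 33 to 38 and 28 to 40 in PSD1 and pdr3Δ PSD1 against V5-PSD1 cells; none rose. The medians ran from −0.68 to −0.61, −0.67 to −0.52, −0.18 to −0.11, −0.01 to 0.12, −0.53 to −0.47 and −0.55 to −0.38 in the same order. In the main fit of all libraries 26.9%, 21.4%, 0.494%, 0.398%, 20.1% and 14.2% of all tested genes fell, again in that order. Both V5-PSD1 calls, NOP14 (adjusted p = 0.0494) and UTP22 (adjusted p = 0.0396), came without replicate 3 of that group, and 1 (UTP5, −0.26, adjusted p = 0.0442) came with the library set as a block. In library series 5 alone 14 factors fell in pdr3Δ PSD1 cells against the empty vector, and 12 in PSD1 cells and 0 in pdr3Δ PSD1 cells against V5-PSD1 cells, in fits of 12 libraries. limma called 40, 40, 0, 0, 32 and 28 factors and DESeq2 40, 40, 0, 0, 36 and 35, where the main fit called 39, 40, 0, 0, 36 and 34. The shares of all genes called by limma, by DESeq2 and with the replicate number as a block are not given here. These counts therefore compare the fits and do not set the factors against all genes. RPF1 in PSD1 against V5-PSD1 cells turned to −0.0252 with the library set as a block and to −0.0515 with the length trend removed, and ran from −0.062 to 0.0679 without 1 library. With the replicate number as a block 40, 40, 0, 0, 37 and 35 factors fell. Same-numbered libraries of different groups correlated in their deviations at −0.10 to 0.59 (17 of 31 pairs over 0.1). At 0.1 or under were 1 of 6 pairs of pdr3Δ PSD1 with PSD1 and 5 of 5 of pdr3Δ PSD1 with the empty vector. The other pairs of groups had 1 to 3 of 5. The main fit did not pair samples by number, and whether the numbers pair them was not settled. As a hint of pairing from the data, the median was 0.11 for same-numbered pairs against −0.07 for others and 0.18 within a library set against −0.06 for others, and 16 and 15 of 22 libraries correlated best with a library of their own number and set. The lowest count of a factor in a library was 477; counting error was not separated from the spread between libraries.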
